A study of Mus musculus with 28 samples.

Results

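Focal gains are short stretches of a chromosome that a tumour carries in more copies than the DNA it was compared with. Here they are the autosomal copy number segments of at most 5 Mb with a mean log2 copy ratio of 0.5 or above, which is a ratio of 1.41 or more. The rule found 307 of them among 3727 segments in 24 tumours. Of these 3727, 3357 lay on autosomes, and 2064 of the autosomal ones were at most 5 Mb long. The log2 ratio and the length chose the members, so the members were selected on measured values and their levels are given as a description without a test.

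The study compared genomic alterations between tumours of mice with a dimeric and with a monomeric form of p53, by exome sequencing of tumour DNA. AD animals had the genotype p53 AD/-, an allele for the dimeric protein opposite a null allele, and RP animals the genotype p53 RP/-, an allele for the monomeric protein opposite a null allele. All were 50% BALB/C and 50% C57BL6, carried the change in the germline, and had no further agent or treatment in the labels. No ages are given. There were 14 thymic lymphomas, 7 of each genotype, and 10 sarcomas, 5 of each genotype, all taken at end point. Exomes of 4 ear samples were not analysed here. Each tumour is 1 replicate and its label carries a number of its own. Each of the 4 ear samples carries the number of 1 tumour of the same genotype, 1 in each tumour group. The labels do not explain the number, but this match means it is read here as that of the animal. No number is shared between tumours, so p-values measure the spread between these tumours.

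Amplification of a short region is a common way for a tumour to raise the dose of an oncogene, a gene whose extra activity drives growth. The copies can sit side by side in a chromosome or on small circles of DNA, and the amplified stretch usually holds passenger genes beside the one that is selected. An exome library captures the coding parts of genes, so a segment is read from capture targets, called markers here, and its ends are known only to the nearest target. Mouse strains also differ in the number of copies of some gene families, among them vomeronasal receptors, zinc finger genes and genes of the major histocompatibility complex, the proteins that present antigens to T cells.

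Sequences are shown for 3 sets of items. The first is the stretch of 250 bases before the start of Mycn, the oncogene with the highest ratio, and that before Crkl, an adaptor gene gained in 2 sarcomas. The Mycn gain of 1 tumour covered its stretch, and whether that of another tumour reached it is not known. Capitals mark every match to the E2F motif letters TTTGGCGC and TTTCCCGC on either strand, as found by a search. E2F factors are cell cycle regulators.
Mycn, chr12:12941837-12942086, minus strand: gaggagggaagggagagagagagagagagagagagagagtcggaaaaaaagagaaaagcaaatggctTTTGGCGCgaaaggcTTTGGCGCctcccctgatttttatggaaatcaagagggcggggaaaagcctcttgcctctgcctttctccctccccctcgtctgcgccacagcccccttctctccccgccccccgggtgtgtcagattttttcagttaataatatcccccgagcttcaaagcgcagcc
Crkl, chr16:17451735-17451984, plus strand: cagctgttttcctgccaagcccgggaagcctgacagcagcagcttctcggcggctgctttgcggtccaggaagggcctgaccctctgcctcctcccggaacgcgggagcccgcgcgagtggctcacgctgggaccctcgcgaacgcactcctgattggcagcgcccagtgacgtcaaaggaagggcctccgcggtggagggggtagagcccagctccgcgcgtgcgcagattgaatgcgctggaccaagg
The Mycn stretch holds 2 matches and the Crkl stretch 0. The same search of the 250 bases before each of 31396 autosomal gene starts in the table found that 1.29% held either motif and 0.414% held TTTGGCGC. A match is a run of letters and not a measured binding site.

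The second set is a pair of stretches from the locus of the Speer genes on chromosome 5, which was gained in 5 tumours. It shows a pair of close copies, with capitals at the bases that differ.
Speer4e, chr5:14938476-14938725, minus strand: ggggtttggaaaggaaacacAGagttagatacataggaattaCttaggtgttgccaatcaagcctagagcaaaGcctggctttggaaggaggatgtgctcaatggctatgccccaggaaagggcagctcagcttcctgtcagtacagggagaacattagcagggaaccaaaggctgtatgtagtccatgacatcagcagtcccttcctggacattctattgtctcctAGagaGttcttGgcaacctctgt
Gm17019, chr5:15033008-15033257, minus strand: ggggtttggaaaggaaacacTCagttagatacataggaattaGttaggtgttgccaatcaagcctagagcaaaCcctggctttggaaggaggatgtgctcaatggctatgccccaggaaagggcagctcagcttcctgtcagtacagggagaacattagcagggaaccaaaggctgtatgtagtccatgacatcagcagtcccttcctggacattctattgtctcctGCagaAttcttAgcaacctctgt
They differ at 8 of 250 bases. In the vomeronasal receptor locus of chromosome 7, the stretches before Vmn1r111 and Vmn1r118 had 250 of 250 bases in common. In the 6 other shared loci where a pair of stretches was compared, 52 to 168 of 250 bases were identical in place. Bases were compared position by position without gaps, so a copy shifted by an insertion counts as different. How close those pairs are is therefore not known.

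The third set is miRNAs inside gains above log2 1 with 10 or more markers, with the seed, bases 2 to 8, in capitals. A miRNA lowers the output of the messenger RNAs that its seed pairs with.
miR-203-3p: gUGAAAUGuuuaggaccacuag
miR-3073a-5p: gUGGUCACaguuggcgccagcc
miR-3073b-5p: aUGGUCACaguggacaucaacc
miR-6939-5p: cAGGCAGCugguugguggaag
miR-6940-5p: aGGGCUGGcuggaagguuuuucg
miR-199b-3p: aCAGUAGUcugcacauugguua
miR-185-3p: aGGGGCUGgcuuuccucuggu
Such gains held 15 miRNA genes with 26 mature names and 25 seeds, and 1 seed was shared by 2 names, miR-3073a-5p and miR-3073b-5p. The genes of miR-203, miR-3073a and miR-3073b lay in a gain of AD thymic lymphoma 6 at log2 3.91. Those of miR-6939 and miR-6940 lay in the Akt1 gains of AD thymic lymphomas 5 and 6. The gene of miR-199b lay in a gain of RP thymic lymphoma 6 at 1.68, and that of miR-185 in a gain of RP sarcoma 5 at 1.49. All sequences are those of RefSeq for GRCm38.p6, the reference and not the tumours.

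Autosomal markers numbered 204845 to 205076 per tumour, in 52 to 499 segments, and how many reads stand behind a marker is unknown. No 2 groups overlapped in that total. Thymic lymphomas had 204845 to 204849 (AD) or 204917 to 204922 (RP), and sarcomas had 205075 to 205076 (AD) or 205073 to 205074 (RP). Processing that differed between the groups therefore cannot be told apart from genotype or tumour type. AD thymic lymphomas 6 and 7 stood apart by their number of autosomal segments, 343 and 499, against 52 to 239 in the other 22 tumours.

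Every tumour had focal gains, between 5 and 28. With each tumour centred on its own median log2 ratio, AD thymic lymphoma 7 had 36 in place of 5, the highest count of all tumours, 34 of them with 10 or more markers. The 7 AD thymic lymphomas had 7, 9, 9, 27, 28, 15 and 5 in the order of their numbers, and the 7 RP thymic lymphomas had 11, 7, 8, 13, 7, 10 and 9. Without centring, AD thymic lymphomas 4, 5 and 6 lay above all RP thymic lymphomas, and the ranges of the groups overlapped otherwise. The 5 AD sarcomas had 22, 13, 18, 10 and 5, and the 5 RP sarcomas 11, 21, 17, 9 and 16, ranges that overlapped over most of their extent.

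**Figure D1:**
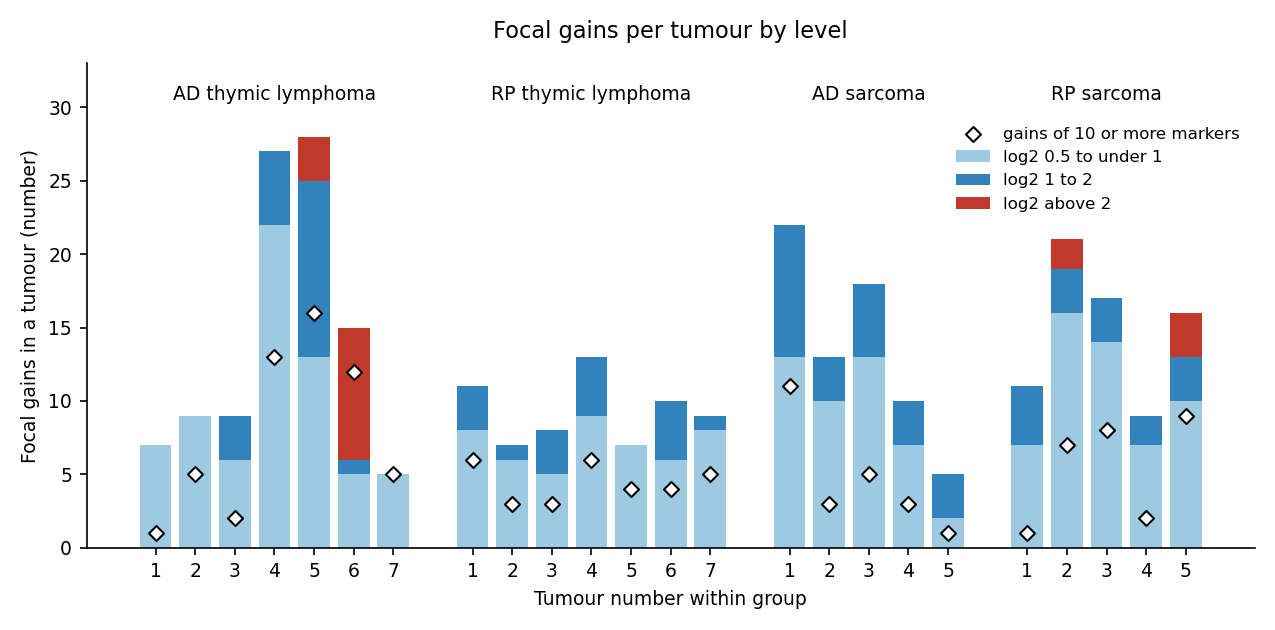
Number of focal gains in each of the 24 tumours by group, stacked by log2 copy ratio; white diamonds give the gains of 10 or more markers. AD thymic lymphomas 4 and 5 have 27 and 28 gains, and levels above log2 2 occur in 4 tumours.

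The genotypes did not differ in the number of focal gains beyond the spread between tumours. In thymic lymphomas the means were 14.3 ± 9.53 (SD, n = 7) in AD and 9.29 ± 2.21 (SD, n = 7) in RP tumours, a difference of 5.0 (two-sided exact permutation p = 0.275, adjusted p = 0.636 over 8 tests). In sarcomas the means were 13.6 ± 6.66 (SD, n = 5) and 14.8 ± 4.82 (SD, n = 5), a difference of -1.2 (two-sided exact permutation p = 0.786, adjusted p = 0.898). After that centring, the difference in thymic lymphomas was 9.29 (exact permutation p = 0.0804, adjusted p = 0.286). Without AD thymic lymphomas 4 and 5, a choice made after seeing the data, the difference in thymic lymphomas was -0.29, and sarcomas changed sign without AD sarcoma 5 (0.95) or RP sarcoma 2 (0.35). The smallest p these designs allow is 0.000583 for 7 against 7 tumours and 0.00794 for 5 against 5. The AD minus RP difference was not shown to depend on tumour type (difference of differences 6.2, exact permutation p = 0.242).

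RP sarcomas had 5.51 more gains per tumour than RP thymic lymphomas before adjustment (9 to 21 against 7 to 13; two-sided exact permutation p = 0.0227), but the difference did not pass after adjustment (adjusted p = 0.182). Its sign turned when only loci gained in 1 tumour were counted (0.4, thymic lymphoma minus sarcoma). In AD animals thymic lymphomas had 0.69 more than sarcomas (exact permutation p = 0.914), and 6.31 more after centring (exact permutation p = 0.311). For gains of 10 or more markers, thymic lymphoma minus sarcoma was 3.11 in AD animals (exact permutation p = 0.318) and -0.97 in RP animals (exact permutation p = 0.566). Restricting to gains of 10 or more markers gave 7.71 ± 5.88 in AD and 4.43 ± 1.27 in RP thymic lymphomas (SD, n = 7 each; difference 3.29, exact permutation p = 0.19), a difference that was 7.71 after centring (exact permutation p = 0.0717, adjusted p = 0.286). The same count was 4.6 ± 3.85 in AD and 5.4 ± 3.65 in RP sarcomas (SD, n = 5 each; difference -0.8, exact permutation p = 0.786), and none of the 8 tests passed after adjustment.

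Most gains were of low level and short. Of the 307, 215 lay from 0.5 to under 1, 75 from 1 to 2 and 17 above 2. The marker classes held 172 gains of 2 to 9 markers, with a median length of 5.0 kb, and 135 of 10 or more, with a median of 489 kb. The 17 gains above 2 came from 4 tumours: 9 from AD thymic lymphoma 6, 3 from AD thymic lymphoma 5, 3 from RP sarcoma 5 and 2 from RP sarcoma 2. Of these, 16 had 10 or more markers, and the other, at log2 3.95 with 5 markers, lay within the microtubule-binding gene Eml5 in AD thymic lymphoma 6. The 5 members just inside the limit stood at 0.5005 to 0.5123, and the 5 segments just outside it at 0.4915 to 0.4997. A further 72 short segments lay from 0.4 to under 0.5, against 60 members from 0.5 to under 0.6. The 3 longest members were 4.64 to 4.99 Mb, and the 3 shortest of the 27 gains above the length limit 5.06 to 5.59 Mb.

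**Figure D2:**
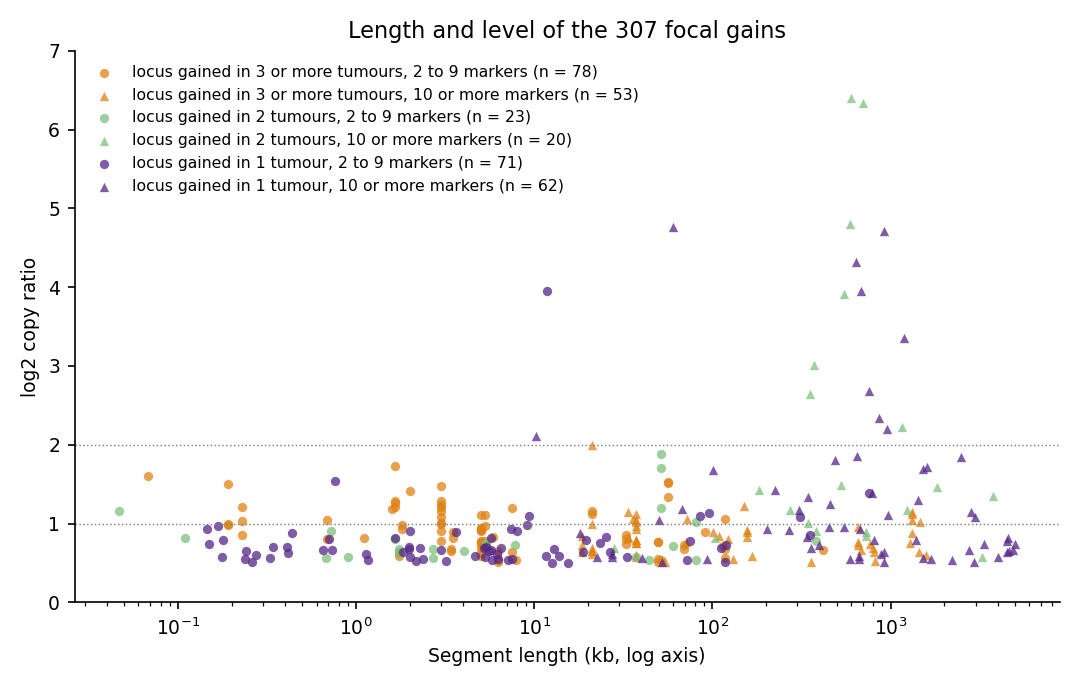
Length in kb on a log axis against log2 copy ratio for the 307 focal gains; colour gives in how many tumours the locus was gained, and triangles have 10 or more markers. Gains above log2 2 lie in loci of 1 or 2 tumours and, with 1 exception at 5 markers, have 10 or more markers.

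Mycn carried the highest gains. Mycn, a Myc-family transcription factor gene of early tissues, lay at chromosome 12, 12936093 to 12941836, in gains at 6.33 in AD thymic lymphoma 5 and 6.40 in AD thymic lymphoma 6. The other 5 AD thymic lymphomas ran from -0.28 to 0.23 over the gene, the 7 RP thymic lymphomas from -0.38 to 0.16 with a median of -0.22, and the 10 sarcomas from -0.31 to -0.03. Only those 2 tumours were high, and no other tumour came near them. The segment of AD thymic lymphoma 6 ran from 12340688 to 12939609 with 12 markers, and that of AD thymic lymphoma 5 from 12937005 to 13633154 with 81 markers. They shared 2605 bases, 12937005 to 12939609, which lie inside Mycn, a gene of 5744 bases on the minus strand. The segment of AD thymic lymphoma 5 reached over the stretch before the gene shown above and over Ddx1, an RNA helicase gene, and most of Nbas. That of AD thymic lymphoma 6 ended inside the gene and was followed by 280 kb without a marker, so whether it reached the stretch before the start is not known.

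In AD thymic lymphoma 6 the Mycn gain was 1 of 9 on chromosome 12, spread over 101 Mb. All 9 stood at 2.69 or above, and the rest of the chromosome had a mean of -0.32. From the start of the chromosome they were Mycn at 6.40, a region with Cbll1, Slc26a4 and Bcap29 at 2.69, Twist1 at 4.71, Gphn at 4.32, Eml5 at 3.95, Setd3 at 4.76, Hsp90aa1 at 3.95, Tdrd9 at 3.91 and Akt1 at 4.80. Twist1 is a transcription factor gene of mesenchymal cells, Setd3 a histidine methyltransferase gene, Hsp90aa1 encodes the stress-inducible Hsp90 chaperone, and Akt1 is a kinase of growth factor signalling. The Tdrd9 and Akt1 gains were neighbours. The other flanking segments of the 9 gains ran from -0.47 to -0.19, so each gain rose from a level below 0. The same tumour had a further gain of 2.47 Mb on chromosome 18 at 1.85, over the kinase gene Map3k8, between flanks at -1.14 and -1.11.

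AD thymic lymphoma 5 had 8 gains on chromosome 12, but only Mycn stood above 1.2. The other 7 ran from 0.55 to 1.19, among them Akt1 at 1.17, Xrcc3, a gene of homologous recombination, at 1.19, and Itgb1bp1, an integrin adaptor gene, at 1.18. Akt1 was thus gained in the same 2 tumours as Mycn, and elsewhere ran from -0.32 to 0.23. The 2 gains that hold Akt1 overlapped but had no end in common.

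**Figure D3:**
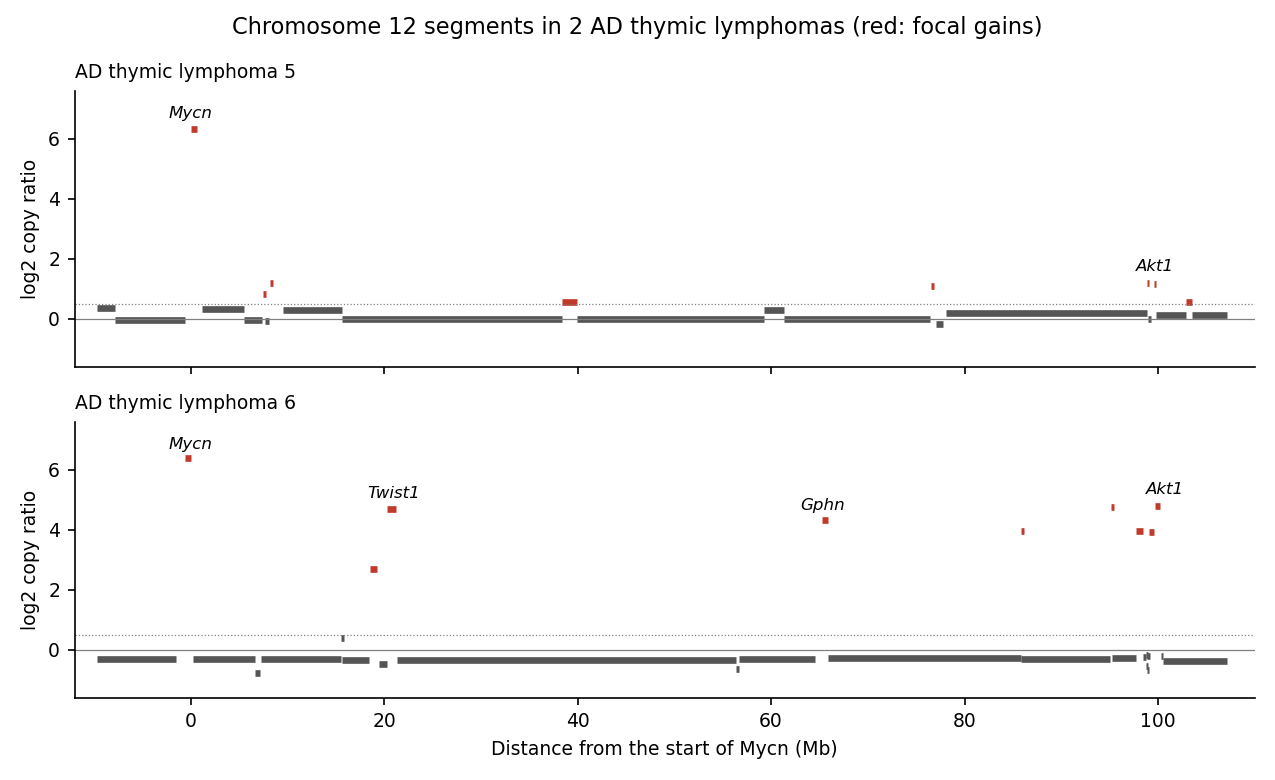
log2 copy ratio of chromosome 12 segments in AD thymic lymphomas 5 and 6 against the distance in Mb from Mycn. The axis calls its zero point the start, which here is the lowest coordinate of this minus-strand gene, 12936093. Focal gains are red, other segments grey, and the dotted line marks 0.5. Both tumours have a Mycn gain above 6, and the other gains of AD thymic lymphoma 6 lie from 2.69 to 4.80 against 0.55 to 1.19 in AD thymic lymphoma 5.

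AD thymic lymphoma 5 also carried several gains on chromosome 9. There, a gain of 1.19 Mb at 3.35 held Ddi1, Dync2h1 and Dcun1d5, where the other tumours ran from -0.28 to 0.45. Dcun1d5, a neddylation gene, and Dync2h1, a cilium motor gene, lay whole inside it. Another gain on chromosome 9, at 1.86 with 58 markers, covered Rexo2, Rbm7 and the transcription factor gene Zbtb16, the last named after its value was seen.

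In RP thymic lymphomas no gain passed log2 2. The highest was 1.9997 at Sfxn1 in RP thymic lymphoma 6, at a locus shared by 6 tumours. The same tumour had 2 gains on chromosome 2 within 1 Mb. The first, 31760036 to 32248614 at 1.81, covered all of Nup214, a nuclear pore gene, and 39.6% of the kinase gene Abl1. The second, at 1.68, covered Golga2, Swi5 and Uck1, and the short segment between them stood at -0.25. Nup214 ran from -0.30 to 0.21 in the other RP thymic lymphomas, from -0.26 to 0.17 in AD thymic lymphomas, and from -0.15 to 0.01 in sarcomas. RP thymic lymphoma 4 had 4 gains on chromosome 15, a chromosome that stood at 0.58 on average elsewhere, and the highest, at 1.35 with 13 markers over 3.76 Mb, covered Myc.

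Myc, the oncogene of cell growth at chromosome 15, 61985341 to 61990361, was gained again in RP sarcoma 2, at 2.22 with 11 markers. That segment ended inside the gene and covered 79.8% of it, and its flanks stood at 0.24 and 0.26. The other 4 RP sarcomas ran from 0.004 to 0.13 at Myc, the AD sarcomas from -0.02 to 0.26, the AD thymic lymphomas from -0.26 to 0.53 with a median of 0.14, and the other 6 RP thymic lymphomas from 0.12 to 0.52. RP sarcoma 2 also had a gain of 10.3 kb within Ccne2, a cyclin gene of DNA replication, at 2.11 with 11 markers and flanks at -0.14 and -0.12. Over the whole of Ccne2 the other 4 RP sarcomas ran from -0.10 to 0.005.

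RP sarcomas 3 and 5 both had several gains in the first part of chromosome 16. Crkl, an adaptor gene of growth factor signalling, stood at 1.42 in RP sarcoma 3 and 3.01 in RP sarcoma 5, and Pak2, a kinase gene of the cytoskeleton, at 1.47 and 1.17. RP sarcomas 1, 2 and 4 lay between -0.03 and 0.20 at both genes, and AD sarcomas between -0.02 and 0.17. The 2 genes lie 14.6 Mb apart. The stretch before Crkl shown above lay inside the gain of RP sarcoma 5, which began at 17255040. In RP sarcoma 3 the gain began at 17452477 and the segment before it ended at 17428142. The stretch lay between them, where there was no marker, so whether that gain held it is not known. RP sarcoma 3 had 7 gains from 0.69 to 1.47 and RP sarcoma 5 had 6 from 0.58 to 3.01. In both tumours a gain ended at 17980564 and the last gain ended at 32186375, after which the chromosome dropped to -0.13 and -0.36. The region between the Crkl and Pak2 ends held a long segment at 0.38 in RP sarcoma 3 and 0.23 in RP sarcoma 5. Pi4ka, a lipid kinase gene, Med15, a transcription cofactor gene, and Septin5 and Cdc45, a replication gene, also lay in the gains of RP sarcoma 5, at 3.01, 2.65 and 2.34.

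**Figure D4:**
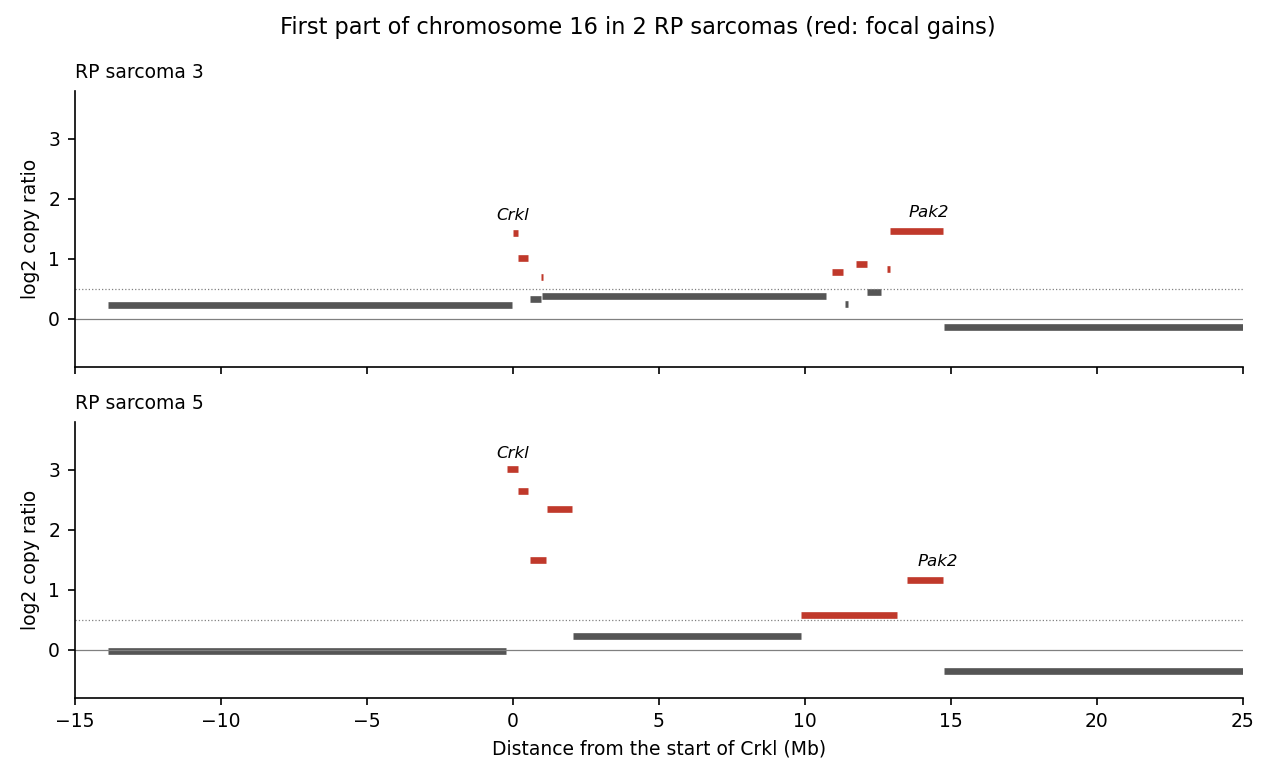
log2 copy ratio of chromosome 16 segments in RP sarcomas 3 and 5 against the distance in Mb from the start of Crkl, with focal gains in red. Crkl stands at 1.42 and 3.01 and Pak2 at 1.47 and 1.17, and both tumours drop below 0 after the Pak2 gain.

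Among AD sarcomas, 1 tumour carried gains of listed oncogenes. AD sarcoma 1 had a gain at 1.39 with 53 markers over the receptor kinase genes Kit (100% covered), Pdgfra (76.7%) and Kdr (30.3%), and 1 at 1.43 over the circadian gene Clock and Tmem165. A segment at 0.20 lay between them. A further gain at 1.34, nearer the start of the chromosome, covered the homeobox gene En2 and the sterol regulator Insig1, and on chromosome 3 a gain at 1.11 covered the GTPase gene Nras. Kit ran from 0.02 to 0.21 in the other 4 AD sarcomas and from 0.01 to 0.21 in RP sarcomas. Nras ran from -0.17 to 0.003 and from -0.17 to 0.06.

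Gains often came several to a chromosome. In 28 tumour chromosomes 3 or more focal gains lay on the same chromosome, with 125 gains in 18 tumours. They need not be close: those on chromosome 9 of AD thymic lymphoma 5 spanned 113 Mb. On some, such as chromosome 17 of AD sarcoma 1, all 4 gains lay in loci gained in 3 or more tumours. Counting gains of 10 or more markers, 13 chromosomes of 11 tumours had 3 or more: 7 in AD thymic lymphomas, 3 in RP thymic lymphomas, 1 in AD sarcomas and 2 in RP sarcomas. The rest of the chromosome was near or below 0 in some and raised in others. AD thymic lymphoma 4 had 10 gains on chromosome 16, from 0.51 to 1.15, on a chromosome whose other segments of 10 or more markers ran from -1.05 to 1.22; the highest of these was 5.59 Mb long and so over the length limit. Runx1, a transcription factor gene of blood cells, stood at 0.63 there, Erg at 0.57 and the miRNA gene of miR-155 at 0.66. In RP thymic lymphoma 1, the 5 gains on chromosome 15 ran from 0.54 to 0.83, where the rest averaged 0.50. In AD thymic lymphoma 7, the 4 gains on chromosome 14 ran from 0.67 to 0.79, where the rest averaged 0.67, and 1 of them covered the tumour suppressor gene Rb1 at 0.75. These gains stood little above their own chromosome.

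Listed genes were read against all genes. Of 97 oncogenes on autosomes, 15 (15.5%) had at least 50% of their length in a gain of 10 or more markers, where 5.33% of all 20665 protein-coding genes did. Gains above log2 1 touched 14 (14.4%) of them, against 1.88% of all genes. Of 29 tumour suppressors, 2 (6.9%) were covered, Rb1 and Brca2, and 0 were touched above log2 1. The gene lists and the regions were drawn up with earlier results of these data known, and genes that lie close together share 1 segment, so these shares are descriptions. Flt3, a receptor kinase gene of blood progenitors, shared the gain of Brca2 in AD thymic lymphoma 2, at 0.82. A segment of 21.9 Mb at 0.87 lay before that gain, parted from it by a segment of 5 markers at 0.06. The gain of Flt3 and Brca2 thus stood no higher than the long segment beside it. Of the 40 gains above log2 1 with 10 or more markers in loci of 1 or 2 tumours, 16 covered or touched a listed oncogene, and 20 came from AD thymic lymphomas 5 and 6.

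Trp53 itself was touched in 2 tumours. A segment of 5 markers inside the gene, 69586890 to 69588625 on chromosome 11, stood at 0.68 in RP thymic lymphoma 5 and 0.63 in RP thymic lymphoma 7. It covered 15.1% of the gene, which is the gene altered in all these mice. The comparison DNA and its Trp53 alleles are not given, so this level was not read as a gain of the whole gene.

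Joining overlapping gains over all tumours gave 174 loci. Of these, 133 were gained in 1 tumour, 18 in 2 and 23 in 3 or more. The 23 shared loci held 131 of the 307 gains, and none of these stood above log2 2. Of the 23, 15 included both tumour types, 16 both genotypes, 6 sarcomas only and 2 thymic lymphomas only. At 21 of them 2 or more tumours had the same ends, and at 20 another tumour stood at -0.3 or below. No shared locus held a listed oncogene or tumour suppressor.

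The number of tumours with a gain was compared between genotypes at each locus. By Fisher's exact test with Benjamini-Hochberg adjustment, 0 of 120 loci (0%) differed between AD and RP thymic lymphomas and 0 of 71 (0%) between AD and RP sarcomas. These tests could hardly pass: a single locus gained in every tumour of 1 genotype and none of the other would have an adjusted exact p of 0.0699 in thymic lymphomas and 0.563 in sarcomas. The counts of 0 therefore do not show that the genotypes are alike. At an unadjusted p under 0.05 the counts were 0 and 1. That 1 was the zinc finger locus of chromosome 2, gained in 4 of 5 AD and 0 of 5 RP sarcomas (Fisher's exact p = 0.0476, adjusted p = 1). AD sarcomas 1, 2, 3 and 4 stood at 1.04, 0.89, 1.13 and 1.15 there and AD sarcoma 5 at 0.01, while the 5 RP sarcomas ran from -0.07 to 0.003. AD sarcoma 5 thus lay with the RP sarcomas.

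The 3 most widely shared loci carried almost no genes. The first, at the start of chromosome 9, 3000921 to 3038191, was gained in 18 tumours and held no gene of the table. The second, on chromosome 2, 98662236 to 98667232, was gained in 15 tumours and also held none. The third, on chromosome 14, 19415856 to 19583564, was gained in 13 tumours, and the joined locus held the gene models Gm2244 and Gm2237. Its most common segment, 19415856 to 19418864, had the same ends in 10 tumours and held no gene. At the first, AD sarcomas stood at 1.03, 0.79, 0.60, 0.98 and 1.05 and RP sarcomas at 1.13, 0.94, 0.75, 0.81 and -0.02. RP thymic lymphomas ran from 0.35 to 1.11 with a median of 0.75, and AD thymic lymphomas from -0.06 to 0.79 with a median of 0.13. The groups overlapped, and RP sarcoma 5 was near 0 at all 3 loci, unlike the other 9 sarcomas. In all, 13 tumours were gained at all 3 loci, 6 at none and 5 at 1 or 2 of them.

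**Figure D5:**
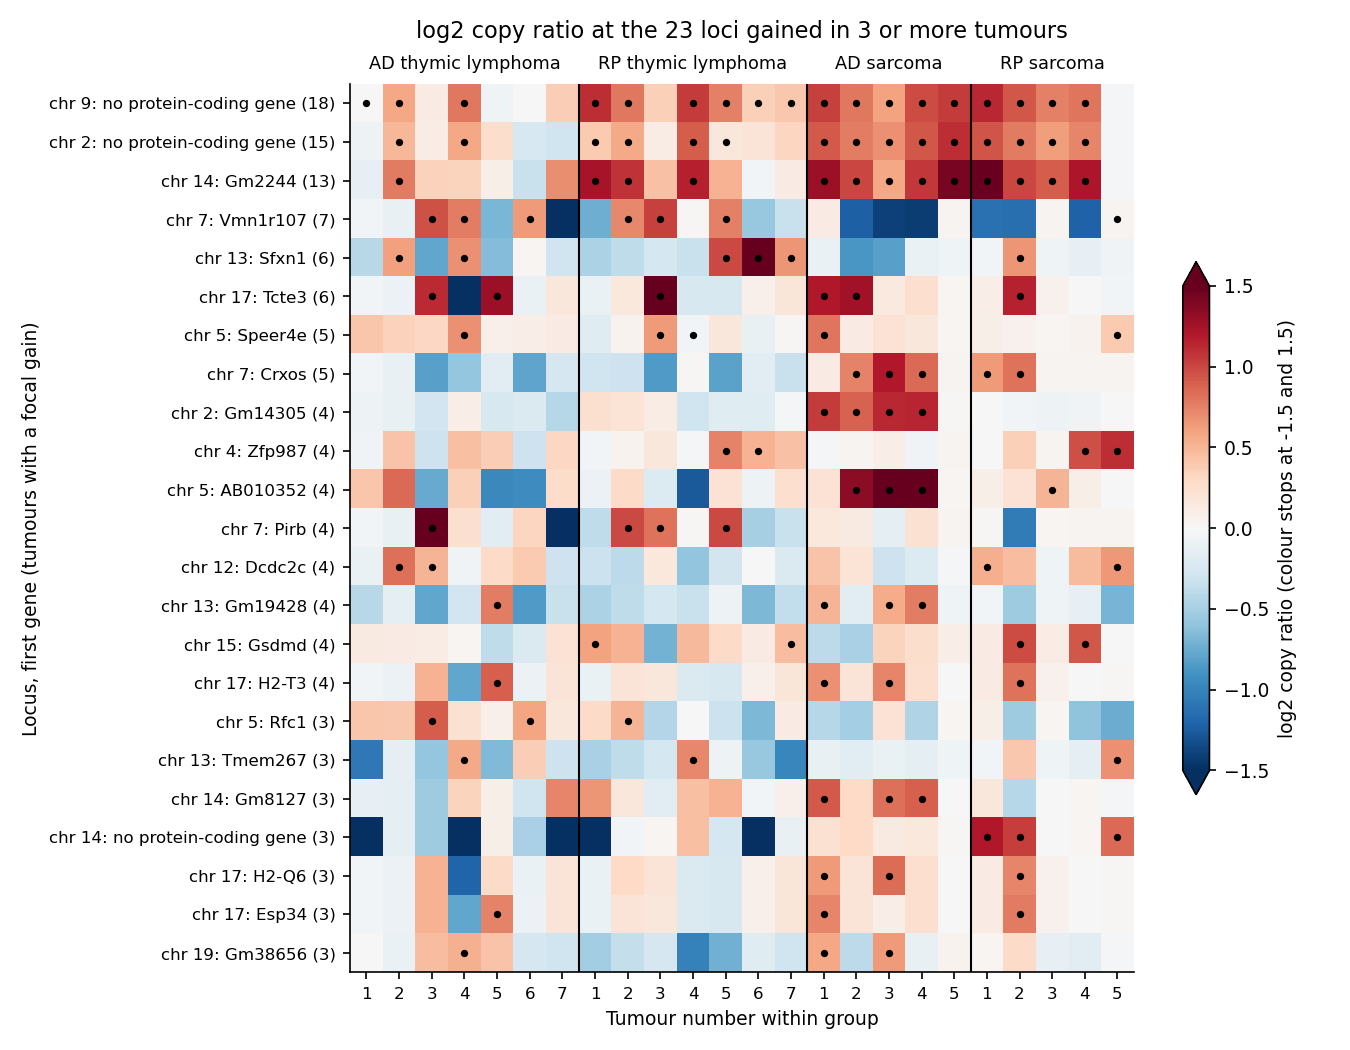
log2 copy ratio over the most common segment of each of the 23 loci gained in 3 or more tumours, named by chromosome and first gene, in the 24 tumours; dots mark a focal gain that overlaps the locus, which can lie beside that segment. The top 3 loci are gained in 13 to 18 tumours, and many lower loci hold gains in some tumours and losses in others.

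Other shared loci covered gene families. The vomeronasal receptor locus of chromosome 7, with Vmn1r107 and Vmn1r111, was gained in 7 tumours, at up to 1.02. AD sarcomas 2, 3 and 4 stood at -1.23, -1.40 and -1.42 there and RP sarcomas 1, 2 and 4 from -1.21 to -1.12, and the other 4 sarcomas from 0.04 to 0.13. The locus thus moved both ways. The Pirb locus, an immunoglobulin-like receptor gene on the same chromosome, ran from -1.93 to 1.5 in AD thymic lymphomas and from -0.50 to 0.99 in RP thymic lymphomas. Crx, a transcription factor gene of photoreceptors, and its neighbour Crxos were gained in 5 sarcomas, at 0.64 to 1.20, and in 0 thymic lymphomas, which ran from -0.85 to 0.02.

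Chromosome 17 had 4 shared loci, with gains in 7 tumours. They were Tcte3, a gene of the t-complex, H2-Q6 with H2-Q7, H2-T3, and Esp34, a gene of a secreted pheromone family. AD sarcoma 1 and RP sarcoma 2 were gained at all 4, AD thymic lymphoma 5 at 3, AD sarcoma 3 at 2, and 17 tumours at none. AD thymic lymphoma 3, RP thymic lymphoma 3 and AD sarcoma 2 were gained at 1, the Tcte3 locus, where RP thymic lymphoma 3 was the highest of all tumours at 1.74. RP sarcoma 2 stood at 1.16, 0.73, 0.81 and 0.78, where the other 4 RP sarcomas ran from -0.04 to 0.13 over the 4 loci. AD thymic lymphoma 4 stood at -3.31, -1.21, -0.78 and -0.78 over the same loci. H2 genes belong to the major histocompatibility complex, which differs between strains. Strain differences at these loci were not tested.

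Sfxn1, a mitochondrial serine carrier gene on chromosome 13, was the most shared locus of a single ordinary gene. A segment of 11 markers with the same ends, 54085459 to 54106506, covered 57% of the gene and was gained in 6 tumours. AD thymic lymphomas 2 and 4 stood at 0.62 and 0.68, RP thymic lymphomas 5, 6 and 7 at 0.996, 1.9997 and 0.66, and RP sarcoma 2 at 0.66. Over that segment the other 5 AD thymic lymphomas ran from -0.78 to 0.02, the other 4 RP thymic lymphomas from -0.47 to -0.27, and AD sarcomas from -0.88 to -0.06. Rfc1, a clamp loader gene of DNA replication, had gains in 3 thymic lymphomas, at up to 1.05, while 9 other tumours stood at -0.3 or below over its most common segment, the lowest at -0.74. Dcdc2c, a doublecortin-family gene, was gained in 4 tumours at 0.51 to 0.83.

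A locus of 2 markers on chromosome 14, 53312903 to 53313131, lay in the T-cell receptor alpha locus, whose variable genes are joined and partly deleted as T cells mature. It was gained in RP sarcomas 1, 2 and 5 at 1.21, 1.04 and 0.85. AD thymic lymphomas ran from -3.08 to 0.08 over it and RP thymic lymphomas from -2.04 to 0.45, with 5 and 2 of 7 at -0.3 or below, against 0 of 10 sarcomas.

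What the shared loci cover differed from what single-tumour loci cover. Of the 181 protein-coding genes in the 23 shared loci, 103 (56.9%) belonged to variable gene families or were unnamed gene models, against 137 of 945 (14.5%) in loci of 1 tumour and 18.4% of all 20665. Vomeronasal receptors made up 43 of the 181, and their share of all genes was not counted. Genes side by side in 1 locus count separately. A gain at the vomeronasal receptor locus of chromosome 7 in AD thymic lymphoma 3 held 19 protein-coding genes, all among the 103. Of the 250-base stretches before gene starts with their first 50 bases, 58.8% of the 136 in shared loci had at least 50% of their 25-base words in the window of another gene. That share was 3.2% of 1280 in loci of 1 tumour, 5.38% of 223 in loci of 2 tumours and 3.72% of all 31396. Reads from near-identical copies cannot always be placed, so levels in these families are uncertain.

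Many short gains lay inside a single gene. Of the 172 gains of 2 to 9 markers, 89 (51.7%) lay wholly within 1 protein-coding gene, against 14 of 135 (10.4%) of 10 or more markers. The 2 classes differ in length, with medians of 5.0 and 489 kb, and this share was not counted for segments that are not gains. The 14 were 6 at Sfxn1, 2 at Rfc1, and 1 each at Robo2, Setd3, Odr4, Scn7a, Ccne2 and Txnrd2, of which Robo2, Odr4, Scn7a and Txnrd2 are named here after their values were seen. Setd3 at 4.76 and Ccne2 at 2.11 were the highest.

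Gains were also counted over each group, to which tumours gave unequal numbers. Loci shared by 3 or more tumours held 24 of 100 gains in AD thymic lymphomas and 31 of 65 in RP thymic lymphomas. They held 43 of 68 in AD sarcomas and 33 of 74 in RP sarcomas. In the order of their numbers, the AD thymic lymphomas had 1, 5, 5, 7, 4, 2 and 0 gains in such loci. Their totals were 7, 9, 9, 27, 28, 15 and 5. Gains above log2 1 with 10 or more markers outside shared loci numbered 22 in 3 of 7 AD thymic lymphomas, 4 in 2 of 7 RP thymic lymphomas, 4 in 1 of 5 AD sarcomas and 10 in 3 of 5 RP sarcomas. These counts were not tested. Such gains were thus found in 9 of 24 tumours, and 15 tumours had none.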

How the data were processed

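Tumour exomes were compared as deposited tables of copy number segments, 1 table per tumour, with chromosome, start, end, number of markers and segment mean. The segment means are log2 copy ratios as the authors deposited them; the log base was read from the values, since no header states it. The marker column, a whole number of capture targets, was deposited by the authors beside each mean. Per the submitters' processing notes, which give no roles, the tools were GATK 4.1.0.0, BWA 0.7.17 and Trim Galore 0.6.5, and the build was GRCm38. The segmentation method, the comparison DNA, tumour purity and the treatment of reads that match several places were not given in the sources used here.

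Coordinates are those of GRCm38, and genes, promoter windows and miRNAs come from RefSeq tables of GRCm38.p6. Segments were taken as deposited, with no centring. Overlapping focal gains of all tumours were joined into loci. A tumour's value at a gene or locus is the length-weighted mean of its segments there, and at a shared locus it was read over the segment seen in most tumours. Counts per tumour were compared by two-sided exact permutation tests, adjusted by Benjamini-Hochberg over 8 tests, and loci by Fisher's exact test adjusted over all loci of the tumour type. The analysis used Python 3.11.15 with numpy 2.4.6, pandas 2.3.3, scipy 1.17.1 and matplotlib 3.10.9, and the tests were tested on simulated data.

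The members, the gene lists, the tests and the alternatives were chosen with earlier results of these data known. The genes named are listed genes covered over at least 50% by a gain of 10 or more markers or touched above log2 1, up to 3 genes at each shared locus and in each of the 20 highest gains of 10 or more markers, genes under gains of 2 to 9 markers above log2 2, and up to 3 genes in gains above log2 1 on chromosomes with several. Trp53, Ddx1, Nbas, Pi4ka and Zbtb16 are named outside that rule, after their values were seen. Alternatives changed the log2 limit, the length limit, the centring, the joining of touching gains and the loci kept, and left out each tumour in turn. Counting only loci of 1 tumour and leaving out pairs of AD thymic lymphomas were chosen after seeing the data. A table column without a sample did not occur. The result of 1 listed gene is not reported here.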

Additional observations from a re-analysis of the deposited data

Results flagged for a closer look

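Examined were the counts of gains per tumour, their total length, their highest level and the levels at the 23 shared loci. A tumour far from the others of its group was sought in 108 groups in all. In 16 of them a tumour stood out, each at a shared locus. Chance alone would mark about 1 in 20 groups if values were independent and the loci were not chosen by their levels. The shared loci were chosen because several tumours were gained there, and loci of the same chromosome can move together in a tumour. The count of 16 therefore cannot be set against that rate and is given as a description. Values are log2 copy ratios over each locus's most common segment.

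RP sarcoma 2 was far above the other RP sarcomas at all 4 shared loci of chromosome 17, at 1.1553 over Tcte3, 0.7325 over H2-Q6, 0.814 over H2-T3 and 0.7783 over Esp34. It was also the highest RP sarcoma at Sfxn1, at 0.6575, and the lowest at Pirb, at -1.0445. AD thymic lymphoma 4 was the lowest of its group at Tcte3, at -3.3063, and at H2-Q6, at -1.20547. RP thymic lymphoma 3 was the highest of its group at Tcte3, at 1.7365, and the lowest at the Gsdmd locus of chromosome 15, at -0.7092.

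At the Speer4e locus of chromosome 5, RP thymic lymphoma 3 at 0.6409, AD sarcoma 1 at 0.8041 and RP sarcoma 5 at 0.3984 each stood above the rest of their group. AD sarcoma 5 was the lowest AD sarcoma at the zinc finger locus of chromosome 2, at 0.012. RP thymic lymphoma 4 was the lowest of its group at the Zfp932 locus of chromosome 5, at -1.2612, and RP sarcoma 3 was the lowest of its group at Dcdc2c, at -0.0613.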

How the results depend on the processing

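None of the 8 count comparisons passed after adjustment under any alternative run (lowest adjusted exact permutation p = 0.0727). The direction of 6 of the 8 differences turned under at least 1 alternative, and the cause was not tested. With a limit of 0.4, AD thymic lymphoma minus AD sarcoma became -0.91 and AD minus RP sarcoma for gains of 10 or more markers 0.8. With a limit of 0.7, AD minus RP sarcoma became 0.8 and AD thymic lymphoma minus AD sarcoma -1.09. With a maximum length of 3 Mb the latter was -0.17. With touching gains joined, the differences for gains of 10 or more markers became 0.2 (AD minus RP sarcoma) and 0.29 (RP thymic lymphoma minus RP sarcoma). Without AD thymic lymphomas 4 and 5, AD minus RP thymic lymphoma was -0.29 and AD thymic lymphoma minus AD sarcoma -4.6. With loci of 1 tumour only, AD minus RP sarcoma was 0.4 for all gains and 0.4 for gains of 10 or more markers, and RP thymic lymphoma minus RP sarcoma 0.4 and 1.06. Leaving out 1 tumour at a time moved AD thymic lymphoma minus AD sarcoma between -1.6 and 2.79 (below 0 without AD thymic lymphoma 4 or 5 or AD sarcoma 4 or 5). It moved AD minus RP sarcoma between -3.3 and 0.95 (above 0 without AD sarcoma 5 or RP sarcoma 2), and for gains of 10 or more markers between -2.4 and 0.1 (above 0 without AD sarcoma 5 or RP sarcoma 5). Centring each tumour on its median raised AD minus RP thymic lymphoma to 9.29 for all gains and 7.71 for gains of 10 or more markers, and AD thymic lymphoma minus AD sarcoma to 6.31 and 8.06. Of 210 recomputed values, 154 kept their direction, 21 changed it and 35 were 0, which has none; 1 of the 35 was AD minus RP sarcoma for gains of 10 or more markers with a limit of 0.7. The locus counts by Fisher's exact test, 0 in each setting, could hardly have differed in a design of this size and say nothing about stability.

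No paired analysis of the tumour groups was possible because no number in the labels is shared between them. Only the ear samples share numbers with tumours, and they were not analysed here. Tumours were numbered in the order of the sample list within a group. Read depth, purity and the comparison DNA are unknown, so no interval can be given for a segment's level. Ends are known only to the nearest marker, and a gain of 2 to 9 markers rests on few targets.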

Other observations

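The sex chromosomes lay outside the rule and are given as counts only. On the X chromosome, segments of at most 5 Mb at log2 0.5 or above numbered 18 in 6 AD thymic lymphomas, 52 in 6 RP thymic lymphomas, 3 in 2 AD sarcomas and 14 in 2 RP sarcomas. The highest stood at 3.57 in RP thymic lymphomas and 2.57 in AD sarcomas. The sex of the mice and of the comparison DNA is not given, so these levels were not read as gains.

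Focal losses by the mirror rule, a log2 ratio of -0.5 or below, numbered 478 in AD thymic lymphomas, 184 in RP thymic lymphomas, 38 in AD sarcomas and 25 in RP sarcomas. AD thymic lymphoma 7 had 214 of them and 5 focal gains, and AD thymic lymphoma 6 had 105 losses and 15 gains. AD thymic lymphomas 4 and 5, which had 27 and 28 gains, had 59 and 21 losses.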
